A study of Caenorhabditis elegans with 16 samples.

Results

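The *clec* genes of *C. elegans* are the genes whose WormBase symbol is *clec-* followed by a number. Of the 46726 genes listed for each sample, 240 were members, with 237 distinct symbols; *clec-15*, *clec-209* and *clec-249* each belonged to 2 gene IDs. Reads were counted for 229 members in 1 or more of the 16 samples, which placed them among the 30177 genes tested; the other 11 members had no count in any sample.

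The family encodes proteins with a C-type lectin-like domain, a fold that in vertebrate lectins binds sugars in a calcium-dependent manner. Most worm members carry a signal peptide and are thought to be secreted, many of them by intestinal cells into the gut lumen. They are known mainly from infection studies, in which each pathogen induces its own subset of *clec* genes and some of the proteins act against bacteria. HLH-30, the worm ortholog of mammalian TFEB, is a transcription factor of autophagy, lysosomal and lipid genes that enters the nucleus upon starvation and also takes part in the response to *Staphylococcus aureus*.

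RNAseq was carried out on L1 larvae of *hlh-30(lf)* worms, which carry the *tm1978* deletion allele, and of the wild-type Bristol N2 strain. Each genotype was sampled while fed, after 33 hours of starvation in M9 salt solution, and after the same starvation plus a further 3 or 15 hours in CeMM, a bacteria-free liquid medium, with 2 samples per group. Fed worms were harvested 18 hours after plating of the eggs on dishes seeded with *E. coli* OP50. Age, development and culture thus differed along with feeding and cannot be told apart from starvation. No group stayed in M9 for the further 3 or 15 hours. Elapsed time, age and the change of medium therefore cannot be told apart from the nutrients of CeMM. The design asks how *clec* transcripts responded to starvation and to refeeding without bacteria, and whether the response differed without functional HLH-30. Every sample was a pool of whole worms. By the study's methods the 2 samples of a group were biological replicates, and replicates in general were made on separate occasions with their controls.

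Total counts on genes ranged between 29205691 and 40955529 per sample, so 3 counts equaled between 0.0733 and 0.103 CPM, which sets the floor as far as counting error goes. Between 129 and 159 members had at least 3 counts in a sample, and 85 had at least 3 counts in all 16 samples. The *hlh-30* gene itself was lower in *hlh-30(lf)* than wild-type worms in the fed state (log2 fold change -0.71) and after 3 and 15 hours of CeMM (-0.57 and -0.69), but starved libraries carrying the *hlh-30(lf)* label had 747 and 716 CPM, against 662 and 619 CPM in starved wild-type libraries (log2 fold change 0.19, edgeR adjusted p = 0.141). The allele removes part of the gene only, which a total per gene cannot show, and the starved mutant libraries are therefore named by their label. Transcripts of adult yolk proteins summed to 63.5 CPM in 1 starved wild-type library and 62.7 CPM in 1 wild-type library after 3 hours of CeMM, both numbered 1, and to at most 9.86 CPM in each of the others.

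A few members made up most of the family's transcripts. Of the 229 members with a count, 6 averaged at least 100 CPM over the 16 samples, 36 at least 10 CPM and 90 at least 1 CPM, whereas 78 averaged under 0.1 CPM. Per kilobase of exon, the 10 most abundant were *clec-63*, *clec-50*, *clec-1*, *clec-65*, *clec-17*, *clec-41*, *clec-150*, *clec-5*, *clec-72* and *clec-85*, and the same 10 led by the deposited RPKM. *clec-63* (chromosome II, 12895638 to 12897462, WBcel235) averaged 1110 CPM per kilobase, against 189 for *clec-50*, and accounted for 37.3% to 53.6% of all *clec* transcripts in a sample.

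The summed *clec* level, in CPM scaled by TMM factors, was 3520 ± 165 in fed *hlh-30(lf)* animals and 3260 ± 211 in fed wild-type worms (SD, n = 2 each, as in the next sentences). After starvation it was 2688 ± 19.1 in libraries labelled *hlh-30(lf)* and 3536 ± 328 in wild type. After 3 hours of CeMM it was 2919 ± 69.3 in *hlh-30(lf)* and 3727 ± 249 in wild type. After 15 hours of CeMM it was 4710 ± 110 in *hlh-30(lf)* and 3704 ± 255 in wild type. The samples of the genotypes did not overlap after starvation or at either time in CeMM, with mutant samples lower at first and higher at 15 hours. In starved worms this separation rested on *clec-63*. Without that gene the sum was 1620 and 1593 CPM in starved libraries labelled *hlh-30(lf)*, against 1608 and 1749 CPM in starved wild type, where the samples overlapped, whereas at both CeMM times they still did not. With 2 samples per group an exact test cannot go below p = 0.333, and the sums were not tested.

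**Figure D1:**
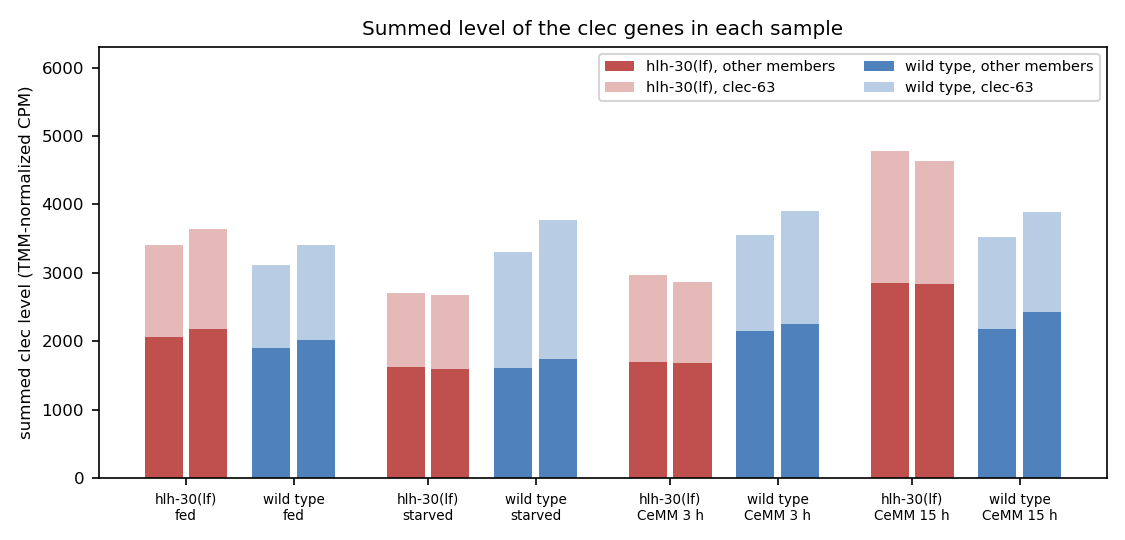
Summed level of the 229 detected *clec* genes in each of the 16 samples, in TMM-normalized CPM (1 bar per sample, *hlh-30(lf)* left of wild type in each state); the pale upper part of each bar is *clec-63*. Starved samples of *hlh-30(lf)* reached 2701 and 2674 CPM, against 3304 and 3768 CPM in wild type, whereas after 15 hours of CeMM the *hlh-30(lf)* bars were the taller ones.

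In starved against fed worms, more *clec* genes were lower than higher in both genotypes. In wild type, 39 members rose and 75 fell on starvation, 17% and 32.8% of the 229 tested, beside 20.1% higher and 20.1% lower among all genes tested and 27.8% and 30.6% among protein-coding genes. In *hlh-30(lf)*, 27 rose and 82 fell, 11.8% and 35.8% of members, beside 18.4% and 19.1% of all genes and 26.2% and 28.8% of protein-coding genes. The share of lower members in wild type thus lay near that of protein-coding genes, and the share of higher members lay below it in both genotypes. Genes were called by edgeR's quasi-likelihood test over all genes at an adjusted p of at most 0.05, here and below. The median log2 change of the members was -0.14 in wild type and -0.25 in *hlh-30(lf)*, and 0 over all genes tested in each. Both genotypes shared 17 higher and 59 lower members. For calls joined over comparisons, here and below, the share of all genes with the same calls is not given. Such counts describe the members only. A further 8 members (*clec-7*, *clec-8*, *clec-25*, *clec-36*, *clec-37*, *clec-63*, *clec-84* and *clec-194*) were higher in starved wild-type but lower in starved *hlh-30(lf)* worms, and *clec-144*, *clec-150* and *clec-196* went the opposite way.

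**Figure D2:**
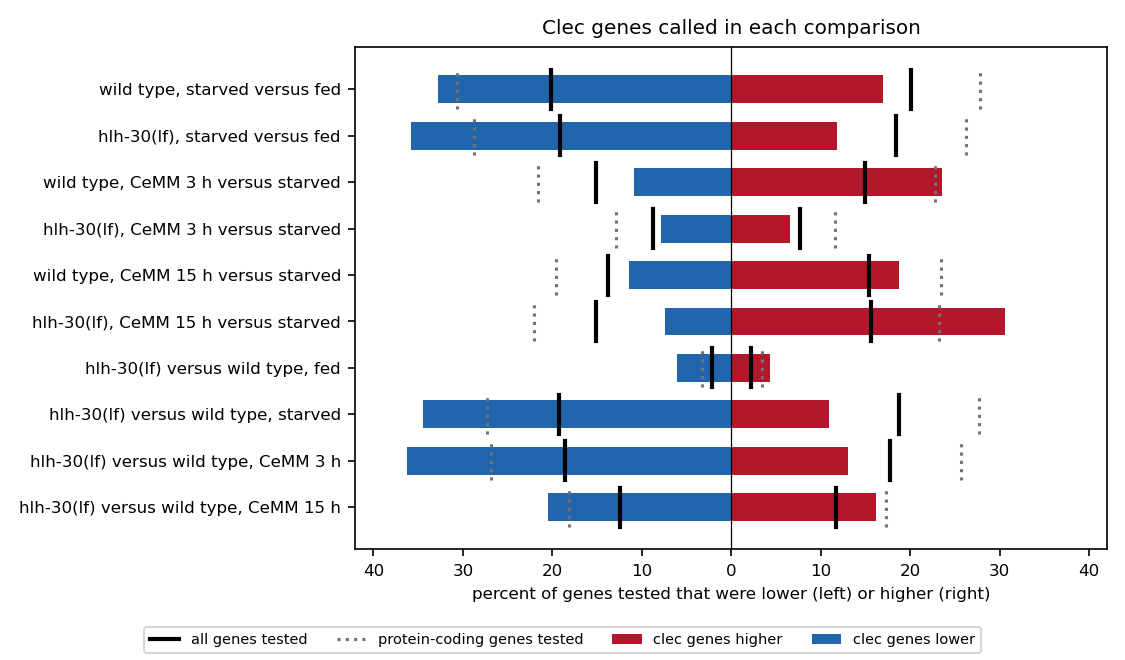
Percent of the 229 tested *clec* genes called higher (red, right) or lower (blue, left) in each comparison between 2 groups, with the percent of all 30177 tested genes as black lines and that of the protein-coding ones as dotted lines. Lower *clec* genes lay beyond both lines in starved against fed worms of both genotypes, and in *hlh-30(lf)* against wild type in every state. In starved against fed wild type they lay near the dotted line (32.8% of members against 20.1% of all and 30.6% of protein-coding genes). Higher ones did so for CeMM 15 h against starved in *hlh-30(lf)* (30.6% of members against 15.6% of all and 23.2% of protein-coding genes). They also did for CeMM 3 h against starved in wild type (23.6% against 15% and 22.8%) and between fed genotypes (4.37% against 2.26% and 3.46%).

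Among members averaging at least 1 CPM, to which all largest changes named here and below refer, starved wild-type worms showed the largest rises for *clec-61*, *clec-82* and *clec-88*. *clec-61* had 12.4 and 13.3 CPM in starved and 0.19 and 0.285 CPM in fed wild-type worms (log2 fold change 5.74 ± 0.25, standard error as in the values below; adjusted p = 1.01e-16). *clec-82* had 12.6 and 10.5 CPM in starved and 0.949 and 0.665 CPM in fed wild-type worms (log2 fold change 3.83 ± 0.21). *clec-88* had 14.7 and 11.4 CPM in starved and 0.601 and 1.3 CPM in fed wild-type worms (3.78 ± 0.23). All 3 were at or under 1.3 CPM in fed wild-type worms. *clec-61* and *clec-88* also rose in starved *hlh-30(lf)* worms, to 0.988 and 1.1 CPM and to 3.44 and 2.85 CPM, whereas *clec-82* had a log2 change of -0.74 there that was not called.

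In wild type, the largest falls upon starvation left members under 1 CPM. *clec-169* had 0.0283 and 0.0555 CPM in starved and 8.67 and 9.49 CPM in fed wild-type worms (log2 fold change -7.64 ± 0.33), and fell by 6.62 on the log2 scale in *hlh-30(lf)*. Its starved values are 1 and 2 counts in wild type and 2 and 2 counts in *hlh-30(lf)*. These lie under the floor of 3 counts, so the size of both falls is uncertain. *clec-4* had 0.595 and 0.833 CPM in starved and 27.3 and 31 CPM in fed wild-type worms (-5.34 ± 0.16). *clec-64* had 0.34 and 0.472 CPM in starved and 10.1 and 10.5 CPM in fed wild-type worms (-4.65 ± 0.22), and fell by 5.62 on the log2 scale in *hlh-30(lf)*. These genes were expressed in fed worms of both genotypes and fell with starvation in both.

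In starved *hlh-30(lf)* worms the largest falls were those of *clec-9*, *clec-76* and *clec-210*. *clec-76* (chromosome IV, 3965246 to 3969025) had 0.389 and 0.209 CPM in starved *hlh-30(lf)* worms and 55.5 and 51.3 CPM in fed ones (log2 fold change -7.49 ± 0.19, adjusted p = 1.3e-21). In wild type *clec-76* had 33.2 and 36.9 CPM in starved and 35.9 and 35.6 CPM in fed worms (-0.03 ± 0.11), so that the groups overlapped there. *clec-9* fell by 8.72 and *clec-210* by 7.28 on the log2 scale in *hlh-30(lf)*, each with a starved sample at 0 counts, and by 3.79 and 4.59 in wild type. The largest rises in starved *hlh-30(lf)* worms were those of *clec-1* (201 and 195 CPM in starved, 43.3 and 52.4 CPM in fed worms, 2.05 ± 0.14), *clec-5* (84.8 and 79.2 CPM in starved, 21.4 and 22.7 CPM in fed worms, 1.9 ± 0.13) and *clec-88* (1.87 ± 0.26). In wild type, *clec-1* rose by 0.56 ± 0.14 and *clec-5* had a change of 0.29 ± 0.13 that was not called.

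The difference between the starvation responses of the genotypes was tested as an interaction, in which a negative value means a lower response in *hlh-30(lf)*. It was negative for 63 members and positive for 22, 27.5% and 9.61% of those tested, beside 13.6% and 14.1% of all genes and 20% and 21.2% of protein-coding genes. *clec-76* had the most negative value, -7.46 ± 0.23, followed by *clec-9* (-4.92 ± 0.95) and *clec-71* (-4.84 ± 0.47). *clec-71* had 0.12 and 0.0523 CPM in starved libraries labelled *hlh-30(lf)*, against 2.64 and 2.64 CPM in starved wild type, and between 4.49 and 5.03 CPM in the 4 fed samples. The most positive values were those of *clec-196* (3 ± 0.49), *clec-41* (2.65 ± 0.14) and *clec-4* (2.36 ± 0.22). *clec-63* had an interaction of -0.89 ± 0.13: *hlh-30(lf)* worms had 1080 and 1080 CPM when starved and 1340 and 1460 CPM when fed, and wild-type worms 1700 and 2020 CPM when starved and 1210 and 1380 CPM when fed. The most abundant member thus rose in starved wild-type worms and fell in starved *hlh-30(lf)* worms.

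After 3 hours of CeMM, more *clec* genes were higher than lower against starved worms in wild type. There 54 members were higher and 25 lower than in starved worms, 23.6% and 10.9% of members, beside 15% and 15.1% of all genes and 22.8% and 21.6% of protein-coding genes, so that the share of higher members lay near that of protein-coding genes and the share of lower ones below it. Without the 2 wild-type libraries with high yolk transcripts, both of which enter this comparison, 42 were higher and 15 lower; that leaves 1 library on each side, with the spread taken from the other groups. The part of adult RNA in the counts was not tested. In *hlh-30(lf)*, 15 members were higher and 18 lower, 6.55% and 7.86% of members, beside 7.71% and 8.71% of all genes and 11.6% and 12.9% of protein-coding genes. The 15 higher members became 9 without *hlh-30(lf)* CeMM 3 h sample 1 and 9 without starved *hlh-30(lf)* sample 2. The interaction was positive for 16 members and negative for 35, 6.99% and 15.3% of members, beside 10.3% and 11.5% of all genes and 15.2% and 17.5% of protein-coding genes.

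The largest rises in wild-type worms at 3 hours were those of *clec-4*, *clec-218* and *clec-210*. *clec-4* had 31 and 29.4 CPM after 3 hours of CeMM and 0.595 and 0.833 CPM in starved wild-type worms (log2 fold change 5.39 ± 0.16). *clec-218* had 19.8 and 20.5 CPM in CeMM and 0.85 and 1.08 CPM in starved worms (4.37 ± 0.16). *clec-210* had 3.8 and 4.8 CPM in CeMM and 0.142 and 0.278 CPM in starved worms (4.33 ± 0.31). None of these was called in *hlh-30(lf)* worms at 3 hours, where *clec-218* had 0.22 and 0.166 CPM in CeMM and 0.15 and 0.261 CPM in starved worms. The interaction was most negative for *clec-4* (-5.07 ± 0.22), *clec-48* (-4.93 ± 0.57) and *clec-139* (-4.55 ± 0.42).

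Several members that rose in starved wild-type worms were lower after 3 hours of CeMM. *clec-146* (chromosome II, 13590559 to 13593797) had 13.8 and 11.9 CPM after 3 hours of CeMM and 103 and 99.5 CPM in starved wild-type worms (log2 fold change -2.98 ± 0.12), with 8.22 and 8.77 CPM in fed ones. *clec-88* and *clec-91* had changes of -2.87 ± 0.19 and -2.52 ± 0.24 at 3 hours in the same comparison, and *clec-87* of -2.51 ± 0.19. These comparisons share the starved samples, and the values are therefore given side by side only. In *hlh-30(lf)* worms *clec-146* had 40.2 and 46.3 CPM after 3 hours of CeMM and 23.3 and 18.6 CPM in starved worms, a rise of 1.05 ± 0.11, with an interaction of 4.03 ± 0.16. *clec-61* behaved alike, with an interaction of 4.64 ± 0.26: it had 4.86 and 7.07 CPM after 3 hours and 0.988 and 1.1 CPM in starved *hlh-30(lf)* worms (2.51 ± 0.2), but 2.8 and 3.05 CPM after 3 hours and 12.4 and 13.3 CPM in starved wild-type worms (-2.14 ± 0.16). The interaction of *clec-264* (2.32 ± 0.13) is uncertain, because its exons overlap those of *fkb-6* on the opposite strand, a gene with 62397 counts over the 16 samples against 11881 of its own, and whether the counting used strand is not given in the sources used here.

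Other members changed in *hlh-30(lf)* worms at 3 hours. *clec-42* had 34.2 and 37.8 CPM after 3 hours of CeMM and 8.05 and 10.2 CPM in starved *hlh-30(lf)* worms (1.98 ± 0.11), and *clec-5* had 219 and 226 CPM in CeMM and 84.8 and 79.2 CPM in starved ones (1.44 ± 0.13). The largest falls were those of *clec-67* (-1.89 ± 0.25), *clec-139* (-1.38 ± 0.32) and *clec-72* (-1.34 ± 0.11). *clec-67*, an intestinal gene used as a readout of the PMK-1 p38 immune pathway, had 16.2 and 12 CPM after 3 hours and 48.3 and 56.3 CPM in starved *hlh-30(lf)* worms. In wild type it had 39.8 and 48 CPM after 3 hours and 10.5 and 16.6 CPM in starved worms, a rise of 1.7 ± 0.25.

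After 15 hours of CeMM the rise was broader in *hlh-30(lf)* worms. There 70 members were higher and 17 lower than in starved worms, 30.6% and 7.42% of members, beside 15.6% and 15.1% of all genes and 23.2% and 22% of protein-coding genes. In wild type, 43 were higher and 26 lower, 18.8% and 11.4% of members, beside 15.4% and 13.8% of all genes and 23.4% and 19.6% of protein-coding genes. Both genotypes shared 36 higher and 10 lower members, while 7 members (*clec-34*, *clec-35*, *clec-36*, *clec-63*, *clec-71*, *clec-84* and *clec-146*) were lower in wild type and higher in *hlh-30(lf)*, and *clec-1*, *clec-5* and *clec-221* the reverse. The interaction was positive for 58 members and negative for 11, 25.3% and 4.8% of members, beside 10.4% and 12% of all genes and 15.3% and 18.1% of protein-coding genes. The 11 negative members became 7 without *hlh-30(lf)* CeMM 15 h sample 1, 6 without wild-type CeMM 15 h sample 2, 5 without starved wild-type sample 1, and 6 without the 2 libraries with high yolk transcripts.

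*clec-48* rose in both genotypes at 15 hours. It had 17.5 and 15.2 CPM after 15 hours of CeMM and 0.688 and 0.34 CPM in starved *hlh-30(lf)* worms (log2 fold change 5.01 ± 0.27), and 61.5 and 74.8 CPM after 15 hours and 1.62 and 2.25 CPM in starved wild-type worms (5.14 ± 0.21). *clec-42* had 244 and 249 CPM after 15 hours and 8.05 and 10.2 CPM in starved *hlh-30(lf)* worms (4.75 ± 0.12), and a rise of 3.18 ± 0.11 in wild type. *clec-174* had 2.54 and 2.18 CPM after 15 hours and 0.15 and 0 CPM in starved *hlh-30(lf)* worms (5 ± 0.42), whereas it had 0.0585 and 0.122 CPM after 15 hours and 0.255 and 0.194 CPM in starved wild-type worms, with the largest positive interaction (6.29 ± 0.88). *clec-71* and *clec-43* followed with interactions of 5.67 ± 0.63 and 5.12 ± 0.47. The largest other rises in wild type were those of *clec-47* (6.03 ± 0.7) and *clec-218* (4.22 ± 0.16). *clec-47* had 5.24 and 8.04 CPM after 15 hours and 0.085 and 0.111 CPM in starved wild-type worms. The starved values are 3 and 4 counts, near the floor, so the size of its rise is uncertain. The largest falls in wild type were those of *clec-88* (-3.54 ± 0.22), *clec-91* (-3.23 ± 0.28) and *clec-71* (-2.86 ± 0.31). *clec-88* and *clec-91* also fell in *hlh-30(lf)*, by 1.67 and 1.63 on the log2 scale.

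*clec-1* moved in opposite directions. It had 59.4 and 54.1 CPM after 15 hours of CeMM and 201 and 195 CPM in starved *hlh-30(lf)* worms (-1.8 ± 0.14), whereas in wild type it had 288 and 278 CPM after 15 hours and 86.4 and 104 CPM in starved worms (1.57 ± 0.14). Its interaction of -3.37 ± 0.2 was the most negative at 15 hours, followed by *clec-221* (-2.1 ± 0.41) and *clec-196* (-1.94 ± 0.51). *clec-221* is uncertain, since its exons overlap those of the more abundant *F17C11.4* on the opposite strand.

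**Figure D3:**
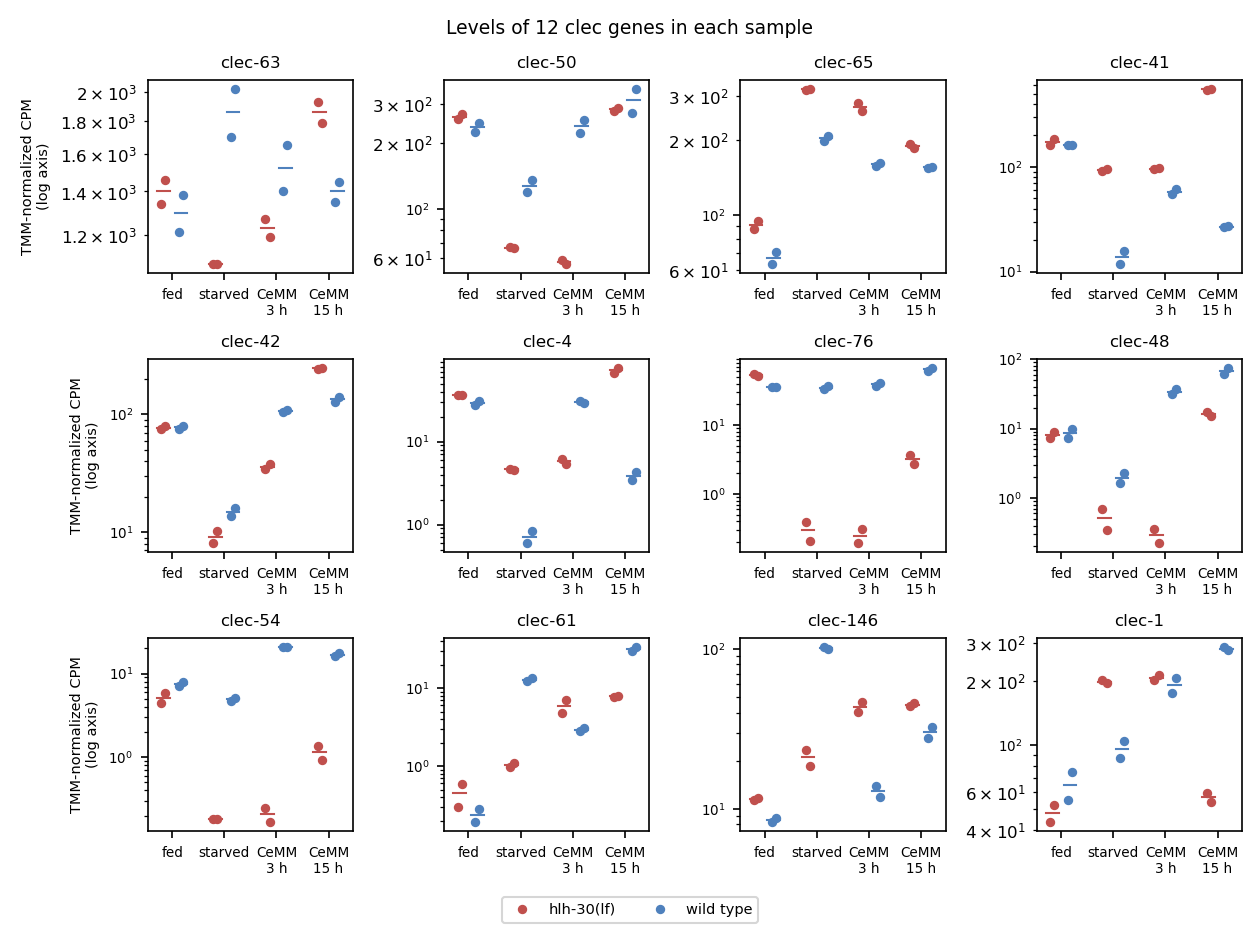
Levels of 12 *clec* genes in each of the 16 samples, in TMM-normalized CPM on log axes (1 dot per sample, lines at the mean of 2; *hlh-30(lf)* in red left of wild type in blue). *clec-76* stayed between 33.2 and 67.6 CPM in all wild-type samples, whereas in *hlh-30(lf)* it had 51.3 and 55.5 CPM in fed samples and at most 3.64 CPM in the others.

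The genotypes were then compared within each state. In fed worms few members differed: *hlh-30(lf)* worms had 10 at a higher and 14 at a lower level than wild type, 4.37% and 6.11% of members, beside 2.26% and 2.16% of all genes and 3.46% and 3.24% of protein-coding genes. The 10 higher members became 6 without fed wild-type sample 1. The 14 lower members became 8 without fed *hlh-30(lf)* sample 1 and 9 without fed wild-type sample 2. *clec-185* had 0.572 and 0.383 CPM in fed *hlh-30(lf)*, against 3.19 and 3.07 CPM in fed wild-type worms (log2 fold change -2.66 ± 0.25). *clec-199* had 10.6 and 11.2 CPM in *hlh-30(lf)*, against 45.7 and 41.8 CPM in wild type (-2 ± 0.11), and *clec-218* 2.71 and 2.4 CPM in *hlh-30(lf)*, against 7.12 and 7.66 CPM in wild type (-1.52 ± 0.15). *clec-139* had 8.95 and 8.82 CPM in fed *hlh-30(lf)*, against 2.69 and 2.75 CPM in fed wild-type worms (1.71 ± 0.16). *clec-9* and *clec-174* were higher by 0.9 ± 0.18 and 0.86 ± 0.19. Both calls were lost with DESeq2 (adjusted p = 0.124 and 0.092), and that of *clec-174* also without *hlh-30(lf)* sample 1 (edgeR adjusted p = 0.0748) or wild-type sample 2 (0.0801).

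In starved worms, 25 members stood higher and 79 lower in libraries labelled *hlh-30(lf)*, 10.9% and 34.5% of members, beside 18.8% and 19.3% of all genes. Their median log2 change was -0.61, and 0 over all genes. Of protein-coding genes, 27.7% were higher and 27.3% lower. Of the 79 lower members, 64 were not called in fed worms. Between fed genotypes only 2.26% of all genes were called higher and 2.16% lower, so this count says little about the members. At 3 hours of CeMM, *hlh-30(lf)* worms had 30 members at a higher and 83 at a lower level, 13.1% and 36.2% of members, beside 17.7% and 18.6% of all genes and 25.7% and 26.9% of protein-coding genes, with a median of -0.71. At 15 hours, 37 members stood higher and 47 lower, 16.2% and 20.5% of members, beside 11.7% and 12.4% of all genes and 17.3% and 18.1% of protein-coding genes, with a median of -0.08. Lower members thus outnumbered higher ones after starvation and 3 hours of CeMM, while at 15 hours the counts in the 2 directions lay closer together.

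Marker transcripts of several tissues moved with the genotype in the same states. The summed level of *ges-1*, *elt-2*, *act-5*, *ifb-2* and *pept-1*, all 5 of which had counts, was 788 to 834 CPM in starved libraries labelled *hlh-30(lf)* and 2300 to 2670 CPM in starved wild type. It was 1170 to 1190 CPM in *hlh-30(lf)* and 2070 to 2390 CPM in wild type after 3 hours of CeMM. After 15 hours it was 1800 to 1890 CPM in *hlh-30(lf)* and 1640 to 1750 CPM in wild type, and in fed worms 3580 to 3720 CPM in *hlh-30(lf)* and 3480 to 3790 CPM in wild type. Taken by itself, *elt-2*, which encodes the GATA factor of the intestine, was higher in starved *hlh-30(lf)* (log2 fold change 1.13 ± 0.1). It averaged 64.2 CPM in *hlh-30(lf)* and 34.8 CPM in wild type after 3 hours of CeMM, and 37 and 24.3 CPM after 15 hours. The summed levels of 3 body muscle genes were 9640 to 13500 CPM in starved libraries labelled *hlh-30(lf)* and 23500 CPM in starved wild type, and those of 3 pharynx genes 2150 to 3220 CPM in *hlh-30(lf)* and 5620 to 6130 CPM in wild type. In the same samples 3 germ line genes summed to 21.3 to 22.3 CPM in *hlh-30(lf)* and 32.2 to 44.2 CPM in wild type, whereas 4 hypodermis genes (93.6 to 101 CPM in *hlh-30(lf)*, 25.3 to 26.1 CPM in wild type) and 4 neuron genes (at least 593 CPM in *hlh-30(lf)*, at most 519 CPM in wild type) were on the other side. After 3 hours of CeMM body muscle genes had 12100 to 12400 CPM in *hlh-30(lf)* and 8310 to 8930 CPM in wild type. Pharynx and germ line genes were again at the lower level in *hlh-30(lf)* at that time. In whole worms fewer cells of a type and less RNA per cell cannot be told apart, and the part of each tissue's RNA in the *clec* changes was not tested.

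**Figure D4:**
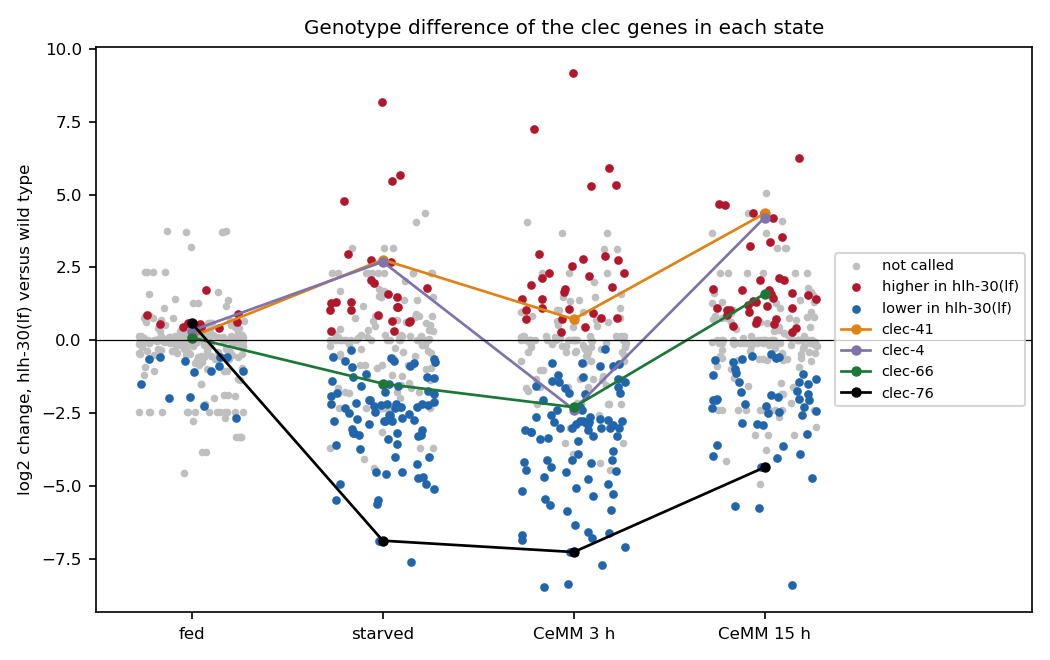
Log2 fold change of *hlh-30(lf)* over wild type for each of the 229 tested *clec* genes (dots, spread sideways at random) in fed, starved and CeMM-refed states; red and blue dots were called higher and lower in *hlh-30(lf)*. The 4 lines follow *clec-41* (4.35 at 15 hours), *clec-4*, *clec-66* and *clec-76* (-6.88 in starved worms). Rows of grey dots at equal values are members with very few counts.

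Members lower in *hlh-30(lf)* worms both after starvation and after 3 hours of CeMM numbered 58, and 33 of these were also lower after 15 hours. These counts have no share of all genes beside them. *clec-76* led them. In starved worms it had 0.389 and 0.209 CPM in *hlh-30(lf)*, against 33.2 and 36.9 CPM in wild type (log2 fold change -6.88 ± 0.19, adjusted p = 6.61e-21). After 3 hours of CeMM it had 0.192 and 0.305 CPM in *hlh-30(lf)*, against 37.2 and 40.4 CPM in wild type (-7.27 ± 0.19), and after 15 hours 3.64 and 2.7 CPM in *hlh-30(lf)*, against 61.6 and 67.6 CPM in wild type (-4.36 ± 0.13). In fed worms, by contrast, it was higher in *hlh-30(lf)*, with 55.5 and 51.3 CPM there and 35.9 and 35.6 CPM in wild type (0.58 ± 0.11).

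The other large differences followed the same course. *clec-82* had 0.12 and 0.366 CPM in starved libraries labelled *hlh-30(lf)*, against 12.6 and 10.5 CPM in starved wild type (-5.5 ± 0.25). *clec-48* had 0.357 and 0.222 CPM in *hlh-30(lf)*, against 31.6 and 36.5 CPM in wild type after 3 hours of CeMM (-6.86 ± 0.28). *clec-55* had 0.459 and 0.286 CPM in *hlh-30(lf)*, against 6.61 and 5.44 CPM in wild type after 15 hours (-4.03 ± 0.26). Each of these was called lower at all 3 starved or refed times but not in fed worms. By contrast *clec-198*, *clec-199*, *clec-218*, *clec-28*, *clec-33* and *clec-54* were lower in *hlh-30(lf)* in all 4 states. *clec-54* had 4.48 and 5.79 CPM in fed *hlh-30(lf)*, against 7.12 and 8.01 CPM in fed wild-type worms (-0.57 ± 0.14), but 0.247 and 0.166 CPM in *hlh-30(lf)*, against 20.7 and 20.8 CPM in wild type after 3 hours of CeMM (-6.63 ± 0.22). *clec-33* had changes of -5.12 ± 0.74 in starved worms and -7.1 ± 0.52 after 3 hours, each with 1 *hlh-30(lf)* sample at 0 counts, and *clec-218* of -3.99 ± 0.16 after 15 hours.

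Members higher in *hlh-30(lf)* both after starvation and after 3 hours of CeMM numbered 15, of which 11 were also higher after 15 hours. Here too no share of all genes is given. *clec-65* alone was higher in all 4 states. It had 87.2 and 94.2 CPM in fed *hlh-30(lf)*, against 63.2 and 71 CPM in fed wild-type worms (0.43 ± 0.08), and 318 and 322 CPM in starved libraries labelled *hlh-30(lf)*, against 198 and 208 CPM in starved wild type (0.66 ± 0.08). *clec-196* was higher by 2.97 ± 0.31 in starved worms and by 2.95 ± 0.26 after 3 hours. *clec-5* was higher by 1.05 ± 0.13 and 2.15 ± 0.13 in these states but lower in fed worms (-0.56 ± 0.13) and after 15 hours (-0.74 ± 0.13). *clec-145* was higher by 1.82 ± 0.21 after 3 hours; its exons overlap those of *Y48E1B.8* on the opposite strand, which had 2165 counts against 1388, and its value is uncertain.

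In 21 members the called genotype difference changed sign between the CeMM times. Of these, 17 were lower in *hlh-30(lf)* at 3 hours and higher at 15 hours, and 4 (*clec-5*, *clec-61*, *clec-221* and *clec-264*) the reverse. The share of all genes with such a change of sign is not given, so whether the family differs from other genes was not tested. Of the 17, 10 were lower in starved worms too: *clec-35*, *clec-42*, *clec-43*, *clec-63*, *clec-66*, *clec-72*, *clec-173*, *clec-186*, *clec-204* and *clec-233*. *clec-66* had 6.18 and 5.16 CPM in *hlh-30(lf)*, against 27.3 and 28.4 CPM in wild type at 3 hours, and 37.5 and 43.6 CPM in *hlh-30(lf)*, against 13 and 13.9 CPM in wild type at 15 hours (1.59 ± 0.11). *clec-186* had 2.33 and 1.77 CPM in *hlh-30(lf)*, against 51.6 and 42 CPM in wild type at 3 hours, and 30.8 and 30.3 CPM in *hlh-30(lf)*, against 17.6 and 20.3 CPM in wild type at 15 hours. *clec-72* had 16.6 and 15.7 CPM in *hlh-30(lf)*, against 26.6 and 29.2 CPM in wild type at 3 hours, and 205 and 193 CPM in *hlh-30(lf)*, against 64.4 and 80.9 CPM in wild type at 15 hours (1.45 ± 0.1). The 2 *hlh-30(lf)* samples lay below both wild-type samples at 3 hours and above both at 15 hours in each of these genes.

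*clec-41* and *clec-42*, whose proteins are known for activity against *Bacillus thuringiensis*, and *clec-4*, which is also studied in that infection, took different courses. *clec-41* (chromosome V, 13134965 to 13138086) had 163 and 184 CPM in fed *hlh-30(lf)*, against 160 and 160 CPM in fed wild type, and 92.2 and 95.8 CPM in starved libraries labelled *hlh-30(lf)* and 11.8 and 15.9 CPM in starved wild type (2.76 ± 0.11). After 15 hours of CeMM it had 540 and 556 CPM in *hlh-30(lf)*, against 26.5 and 27.2 CPM in wild type (4.35 ± 0.11, adjusted p = 1.22e-20). *clec-4* was higher in *hlh-30(lf)* after starvation (2.69 ± 0.19), lower after 3 hours, with 6.21 and 5.4 CPM in *hlh-30(lf)*, against 31 and 29.4 CPM in wild type (-2.38 ± 0.12), and higher after 15 hours, with 66.6 and 77.5 CPM in *hlh-30(lf)*, against 3.48 and 4.28 CPM in wild type (4.21 ± 0.13). Its level in wild type was therefore high at 3 hours and low again at 15 hours, while in *hlh-30(lf)* it was low at 3 hours and high at 15 hours. *clec-42* had 244 and 249 CPM in *hlh-30(lf)* after 15 hours, above both wild-type samples, which averaged 135 CPM (0.87 ± 0.1).

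Other members with a published role differed less uniformly. *clec-85*, like *clec-67* a readout of PMK-1 signaling, had 26.3 and 25.1 CPM in *hlh-30(lf)*, against 62.3 and 60.8 CPM in wild type after 3 hours of CeMM (-1.26 ± 0.09), but was higher in *hlh-30(lf)* in the other 3 states (0.45 ± 0.09 in fed, 0.67 ± 0.09 in starved worms and 0.57 ± 0.09 after 15 hours). *clec-39* and *clec-49* are required for resistance to *Serratia marcescens*. *clec-49* had 0.769 and 0.859 CPM in *hlh-30(lf)*, against 27 and 32.2 CPM in wild type after 3 hours of CeMM (-5.18 ± 0.17). *clec-39* had 0 counts in both *hlh-30(lf)* samples and 11 and 5 counts in the wild-type samples at that time. *clec-60*, which *S. aureus* and *Microbacterium nematophilum* induce, had 31 and 22 counts in starved libraries labelled *hlh-30(lf)*, against 5 and 10 counts in starved wild type, and was higher in *hlh-30(lf)* after 3 and 15 hours of CeMM (2.76 ± 0.42 and 1.56 ± 0.35). *clec-60* and its neighbor *clec-61* thus lay on opposite sides in starved worms (1.8 ± 0.47 and -3.61 ± 0.19).

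*clec-70*, a neighbor of *clec-71*, had 0.547 and 0.627 CPM in fed *hlh-30(lf)*, against 2.18 and 2.37 CPM in fed wild-type worms (-1.96 ± 0.3). *clec-7* had 0.958 and 0.863 CPM in starved libraries labelled *hlh-30(lf)*, against 4.68 and 5.8 CPM in starved wild type (-2.52 ± 0.21). *clec-17* had 181 and 176 CPM in *hlh-30(lf)*, against 85.1 and 82.5 CPM in wild type after 3 hours of CeMM (1.09 ± 0.08), and was slightly lower in starved *hlh-30(lf)* (-0.35 ± 0.08). *clec-87* was lower in starved *hlh-30(lf)*, with 9.4 and 9.73 CPM there and 38.7 and 30.6 CPM in starved wild type (-1.86 ± 0.18), and was not called in the other states. *clec-86* was higher after 15 hours (2.07 ± 0.21) but overlaps the more abundant *alh-10* on the opposite strand and is uncertain. *clec-38*, which encodes a transmembrane protein that restrains axon outgrowth, had 0 and 0 counts in *hlh-30(lf)* and 20 and 7 counts in wild type after 3 hours, and *clec-29* had at most 6 counts in a sample.

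The remaining abundant members were *clec-50* and *clec-150*. *clec-50* had 67 and 66.5 CPM in starved libraries labelled *hlh-30(lf)*, below both starved wild-type samples, which averaged 127 CPM (-0.93 ± 0.1). After 3 hours of CeMM it had 58.5 and 56.3 CPM in *hlh-30(lf)*, against 222 and 253 CPM in wild type (-2.05 ± 0.11). After 15 hours it had 279 and 287 CPM in *hlh-30(lf)*, against 272 and 351 CPM in wild type (-0.14 ± 0.1), where the samples overlapped. *clec-150* went the other way in starved worms, with 114 and 108 CPM in libraries labelled *hlh-30(lf)*, against 44.3 and 44.6 CPM in wild type (1.32 ± 0.09).

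Many *clec* genes lie side by side. By the paper's methods only uniquely aligned reads were counted, so near-identical neighbors may be undercounted. With neighbors defined as members within 10 kb, 154 of the 240 formed 47 groups, and the largest held 13 genes on chromosome V (16839145 to 16869845, WBcel235). In this group 11 of 13 were lower in starved libraries labelled *hlh-30(lf)* than in starved wild type and none was higher, 11 were lower after 3 hours of CeMM, and 9 were lower and 1 higher after 15 hours, whereas 2 were lower in fed worms. *clec-36*, one of the 13, had 0.359 and 0.366 CPM in starved libraries labelled *hlh-30(lf)*, against 7.06 and 6.99 CPM in starved wild type (-4.26 ± 0.21). The exception at 15 hours was *clec-35*, with 1.74 and 1.51 CPM in *hlh-30(lf)*, against 0.702 and 0.887 CPM in wild type (1.03 ± 0.26). A second group on chromosome V, *clec-57*, *clec-227*, *clec-56*, *clec-54* and *clec-55*, had all 5 members lower in *hlh-30(lf)* after starvation and after 3 hours, and 4 lower after 15 hours. On chromosome II the 5 members *clec-62* to *clec-66* were all higher in *hlh-30(lf)* after 15 hours, while 2 were higher and 2 lower in starved worms. The groups described are examples from 19 with at least 3 members. No counts for neighboring genes outside the family are given beside them.

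**Figure D5:**
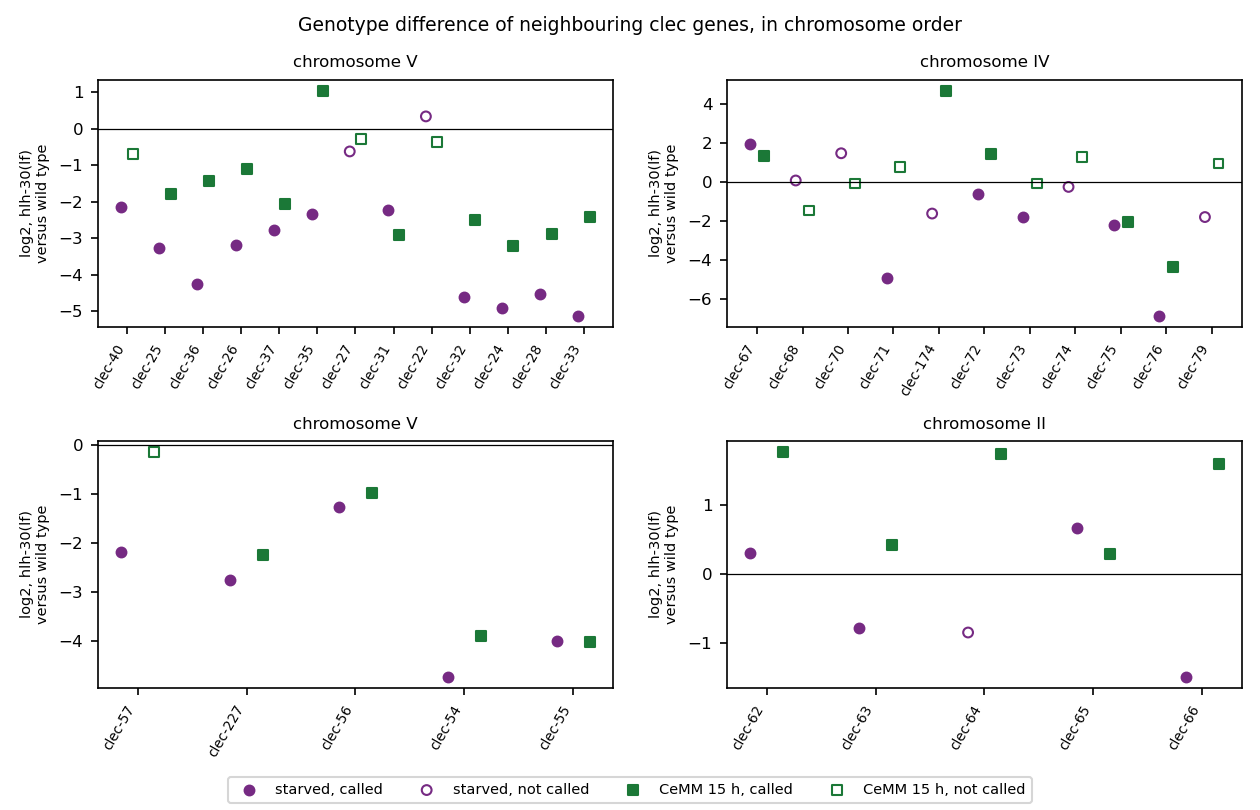
Log2 fold change of *hlh-30(lf)* over wild type in 4 groups of neighboring *clec* genes, in chromosome order, after starvation (circles) and after 15 hours of CeMM (squares); filled symbols were called. In the upper left group 11 of 13 circles are filled and below 0, and in the lower right group all 5 squares are filled and above 0.

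Neighbors did not always move together. Of 98 pairs of adjacent members, 31 had both members called between genotypes in starved worms. Of these, 23 had both lower, none both higher and 8 opposite directions. Adjacent genes outside the family were not counted for comparison. Among neighbors that each averaged at least 1 CPM, the largest contrast within 10 kb was that of *clec-64* and *clec-65*, 891 bases apart: in *hlh-30(lf)* worms *clec-64* had 0.239 and 0.209 CPM in starved and 10.6 and 11.7 CPM in fed worms (-5.62 ± 0.24), while *clec-65* had 318 and 322 CPM in starved and 87.2 and 94.2 CPM in fed worms (1.82 ± 0.08). *clec-62*, in the same group, rose by 1.57 ± 0.11. *clec-8* and *clec-4*, 696 bases apart, differed likewise in wild type, where *clec-8* had 7.48 and 9.16 CPM in starved and 2.44 and 2.56 CPM in fed worms (1.73 ± 0.16) while *clec-4* fell by 5.34 on the log2 scale.

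Regulators of immune genes and another lectin family were compared in the same way. Of 18 regulators of innate immunity, which include the PMK-1 p38 cascade, 13 were higher and 3 lower in starved libraries labelled *hlh-30(lf)* than in starved wild type, among them *vhp-1*, which encodes a MAP kinase phosphatase (2.28 ± 0.08), and *tir-1*, which encodes the adaptor at the head of the cascade (2.2 ± 0.09). *pmk-1* itself was higher by 0.68 ± 0.09, whereas *nsy-1*, encoding the MAP3 kinase, was lower (-0.89 ± 0.1). After 3 hours of CeMM, 11 of the 18 stood higher and 2 lower, and at 15 hours 8 higher and 3 lower. Between the starved genotypes, 18.8% of all genes were higher and 19.3% lower, and 27.7% and 27.3% of protein-coding genes. At 3 hours the shares were 17.7% and 18.6% of all genes and 25.7% and 26.9% of protein-coding genes. At 15 hours they were 11.7% and 12.4% of all genes and 17.3% and 18.1% of protein-coding genes. Of 12 galectin genes, which encode lectins of another fold that bind galactosides, 9 were higher and 1 lower in starved libraries labelled *hlh-30(lf)*. The median log2 change was 0.93 for galectins, 0.67 for the regulators and 0 over all genes tested. *lec-4* was higher by 2.6 ± 0.1 and *lec-2* was the lower one (-3.24 ± 0.1).

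Of the 229 tested members, 156 were called in at least 1 of the 10 comparisons between 2 groups and 73 in none. The share of all genes called in at least 1 of them is not given, so these counts describe the members only. *clec-178* was the most abundant of those in none per kilobase, with values from 4.21 to 7.04 CPM over the 16 samples.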

How the data were processed

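RNAseq libraries of 16 samples in 8 groups were analysed. By the paper's methods and the submitters' processing notes, the authors mapped single-end reads to WBcel235 using STAR 2.0.4b and counted uniquely aligned, unambiguous reads per gene with featureCounts (version 1.45 in the submitters' notes). The authors deposited raw counts for each gene, with CPM (counts scaled by library total) and RPKM values derived from them. Tests rest on the counts alone, and the deposited RPKM served only to rank members by level; levels given as CPM are counts scaled by TMM-adjusted totals.

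Genes with a count in any sample were tested with edgeR 4.0.16 (R 4.3.3, limma 3.58.1): TMM normalization, 1 coefficient per group over all 16 samples, no replicate block, the quasi-likelihood test of this version's newer method with robust estimation, and Benjamini-Hochberg adjustment over the 30177 genes. A standard error is the size of the log2 change over the root of its F statistic. The pipeline was tested on simulated data. Alternatives were DESeq2 1.42.0, limma-voom (the test in the paper's methods), edgeR's filter on low counts, RLE size factors, the older quasi-likelihood method, the replicate block and each sample left out. Figures were drawn with matplotlib.

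Members, lists and tests were chosen with earlier results of these data known. Genes named were, per comparison, up to 3 rises and 3 falls among called members with a mean of 1 CPM or more and no overlap between the samples; per interaction, up to 3 in each direction; the 10 highest per kilobase; 18 members with published roles; and the 3 most opposed neighbor pairs. Other members were chosen as examples after their values were seen. Symbols came from a gene names table; exon overlaps and groups came from an annotation of the same build. No sequences are shown. The paper describes replicates as made at different times with their controls, but the labels do not say that a sample number marks such an occasion, and same-numbered samples were not treated as pairs.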

Additional observations from a re-analysis of the deposited data

Results flagged for a closer look

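The responses of the genotypes differed by the interaction test of edgeR for many members, which is what singled out the following results. The response to starvation was more positive in *hlh-30(lf)* for 22 members and more negative for 63, 9.61% and 27.5% of members. Beside these stood 14.1% and 13.6% of all genes and 21.2% and 20% of protein-coding genes. That to 3 hours of CeMM was more positive for 16 and more negative for 35, 6.99% and 15.3% of members. The shares were 10.3% and 11.5% of all genes, and 15.2% and 17.5% of protein-coding genes, both above those of the members. The response to 15 hours was more positive for 58 and more negative for 11, 25.3% and 4.8% of members. There 10.4% and 12% of all genes were called, and 15.3% and 18.1% of protein-coding genes.

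Of the named members, the starvation interaction was 3 for *clec-196*, 2.65 for *clec-41*, 2.36 for *clec-4*, -7.46 for *clec-76*, -4.92 for *clec-9* and -4.84 for *clec-71* on the log2 scale. The interaction at 3 hours was 4.64 for *clec-61*, 4.03 for *clec-146*, 2.32 for *clec-264*, -5.07 for *clec-4*, -4.93 for *clec-48* and -4.55 for *clec-139*. At 15 hours it was 6.29 for *clec-174*, 5.67 for *clec-71*, 5.12 for *clec-43*, -3.37 for *clec-1*, -2.1 for *clec-221* and -1.94 for *clec-196*. The starved samples enter all 3 interactions, so these values are not independent of each other.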

How the results depend on the processing

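The 26 counts of called members stayed within 1.5 times under DESeq2, limma-voom, RLE size factors, the filter on low counts, the older quasi-likelihood method and the replicate block, and no change of a named member reversed under them or with a sample left out. With the 2 wild-type libraries with high yolk transcripts left out, an alternative chosen after seeing the data, 15 members rather than 25 were lower after 3 hours of CeMM in wild type and 6 rather than 11 had a negative interaction at 15 hours; the other 24 counts stayed within 1.5 times, and the cause was not tested. Leaving out a sample leaves 1 in its group, which is then assumed to vary like the other groups. With each sample left out in turn, higher members after 3 hours of CeMM in *hlh-30(lf)* ranged from 9 to 17, members higher in fed *hlh-30(lf)* from 6 to 11, lower ones from 8 to 15, and negative interactions at 15 hours from 5 to 11. The other counts stayed within 1.5 times; those lower in starved and in 3-hour refed *hlh-30(lf)* ranged from 66 to 79 and from 72 to 85. Of 1716 values of named members under all of these settings, 1711 kept their call and 5 lost it: *clec-9* in fed worms (DESeq2 adjusted p = 0.124), *clec-174* in fed worms (DESeq2 0.092, without *hlh-30(lf)* sample 1 0.0748, without wild-type sample 2 0.0801) and the interaction of *clec-196* at 15 hours without wild-type sample 2 (0.0569). Summed *clec* levels on total counts instead of TMM moved by more than the replicate SD in 7 samples, to 3105 CPM in wild-type CeMM 15 h sample 2 against 3884, and to 5033 and 4935 CPM in the *hlh-30(lf)* samples at that time; the order of the genotype means in each state was the same.

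Same-numbered samples of 2 groups deviated from their group means with correlations from -0.147 to 0.278 (mean 0.009 over 28 pairs of groups), so the numbers were not taken as pairs. With the replicate block, starved *hlh-30(lf)* worms had 24 higher and 77 lower members, against 25 and 79 without it. For wild type after 3 hours of CeMM, where the correlation was -0.128, a crossed pairing gave 52 higher and 24 lower members.

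Having 2 samples per group limits every call, and levels under about 0.1 CPM cannot be resolved at this depth. The counts of called members still include some that averaged under 0.1 CPM, among them *clec-250* and *clec-251*. Those calls are uncertain. Worms were whole and pooled, so no result is tied to a tissue.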

Other observations

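Of the 19 groups with at least 3 neighboring members, 4 had no member called in any comparison between 2 groups. These gave almost no transcripts in these larvae. *clec-93* to *clec-99* (7 members on chromosome I) had at most 4 counts for any member in any sample, *clec-104* to *clec-106* on the same chromosome at most 11, the 7 members between *clec-127* and *clec-134* on chromosome II at most 6, and *clec-213* to *clec-215* on chromosome V at most 3. The groups *clec-250* to *clec-254* and *clec-255* to *clec-257* on chromosome V also had very low counts, but each held a called member.

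Members were unevenly spread over the chromosomes. Chromosome V held 86 of the 240 (35.8%, beside 24.8% of the tested protein-coding genes), chromosome IV 53 (22.1%, beside 16.3%), and chromosome X 3 (1.25%, beside 13.7%).

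*clec-266* on chromosome X varied more between samples of a group than most abundant members, with 13.5 and 4.76 CPM in starved libraries labelled *hlh-30(lf)* and 8.73 and 1.27 CPM in wild type after 3 hours of CeMM, and was called in none of the comparisons. The library with 8.73 CPM had high yolk transcripts, and the one with 13.5 CPM did not. *clec-78* and *clec-180* were likewise higher in the former library than in its replicate. The reason was not tested.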
